A study of Mus musculus with 8 samples.

Results

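The 4 mouse pancreatic ductal adenocarcinoma (PDAC) lines of the study were compared as 2 pairs, 6694c2 and 6419c5 against 2838c3 and 6499c4. Earlier work on these lines described tumors of the first pair as poor in T cells and tumors of the second pair as rich in them. That description is not in the sample labels and was not measured here, since the RNA came from cultured cells. All 8 libraries of the series entered, 4 from the T-cell-poor lines and 4 from the T-cell-rich lines. Each line gave 1 library of its parent, labelled WT, and 1 of its derivative labelled C1galt1c1-KO, which the series describes as lacking the chaperone Cosmc and carrying the Tn antigen. The 8 cultures thus differ in line and in genotype, and every line is present with both genotypes. The labels do not say whether a KO derivative is a single clone or a pool. Genes were kept where TPM, a length-scaled share of all transcripts, reached 1 in at least 4 libraries, which left 12900 of 49315 identifiers.

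Tumors that grow from such lines differ in how many T cells enter them, and secreted signals of the tumor cell are among the known influences. Chemokines that bind the receptor CXCR2 draw neutrophils and related myeloid cells, which can restrain T cells, whereas Cxcl9, Cxcl10 and Cxcl16 draw T cells. A T cell can recognise a tumor cell through peptides shown on MHC molecules. MHC class I is loaded by the transporter Tap1 with Tap2 and by a set of helper proteins in the endoplasmic reticulum.

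The promoters of 3 CXCR2-ligand chemokines are shown here. These genes lie in the same part of chromosome 5 and share a binding sequence of the transcription factor NF-kB, yet differed in how they were expressed. Each run holds the 250 bases before the transcription start, from RefSeq on GRCm38.p6, a build other than the mm39 of the expression files, with the matches to GGGAANTTCC in capitals. In each promoter the sequence matched on both strands, and the 2 matches overlap by all but 1 base at either end.
Cxcl1, chr5:90890995-90891244, plus strand: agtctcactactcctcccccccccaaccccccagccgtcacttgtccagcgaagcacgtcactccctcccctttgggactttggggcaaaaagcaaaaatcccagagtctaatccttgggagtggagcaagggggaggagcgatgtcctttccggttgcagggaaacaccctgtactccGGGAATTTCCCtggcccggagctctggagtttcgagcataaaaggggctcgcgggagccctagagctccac
Cxcl2, chr5:90903649-90903898, plus strand: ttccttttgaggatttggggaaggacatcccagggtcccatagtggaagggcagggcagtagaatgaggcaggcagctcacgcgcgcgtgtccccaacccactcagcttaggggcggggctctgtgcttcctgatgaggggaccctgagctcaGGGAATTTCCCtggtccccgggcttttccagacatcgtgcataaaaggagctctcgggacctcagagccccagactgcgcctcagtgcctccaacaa
Cxcl3, chr5:90785851-90786100, plus strand: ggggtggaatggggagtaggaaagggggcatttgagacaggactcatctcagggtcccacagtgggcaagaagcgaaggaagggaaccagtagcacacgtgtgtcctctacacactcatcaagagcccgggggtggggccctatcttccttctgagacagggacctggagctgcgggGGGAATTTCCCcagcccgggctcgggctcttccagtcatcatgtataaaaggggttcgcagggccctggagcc
Searched on both strands, GGGAANTTCC was found in 0.283% of 32851 mouse promoters of that length. Cxcl1, Cxcl2 and Cxcl3 held it, Cxcl15, Ppbp and Pf4 did not, and Cxcl5 was not matched to a promoter.

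The line, not the library, was the unit of the test, because the WT and KO libraries of a line are not independent. With 2 lines against 2 there are 6 ways to assign the lines, so an exact two-sided permutation test could not go below p = 0.333 for any gene. The limma test on line means called 0 genes higher and 0 lower at a Benjamini-Hochberg adjusted p under 0.05 (0% of genes in either direction), and the smallest adjusted limma p was 0.464, shared by Pmp22 and Cxcl1. At an unadjusted limma p under 0.05, 159 genes were higher in the T-cell-poor lines (1.23%) and 100 lower (0.775%). Everything below is therefore a description of order and size. It cannot be told apart from differences that any 2 lines would show against 2 others.

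Lines of the same group were no more alike than lines of different groups. The median absolute log2 difference between 6694c2 and 6419c5 was 0.45, the largest of the 6 pairs of lines, and that between 2838c3 and 6499c4 was 0.37. Across the groups it ran from 0.32, between 6694c2 and 2838c3, to 0.40, between 6694c2 and 6499c4. The 2 group means differed by a median of 0.21, and 610 genes differed between them by at least 1 on the log2(TPM + 1) scale, a scale that understates differences of genes at low level.

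Of the 12900 genes, 1274 were higher in the T-cell-poor line in all 4 pairs of 1 T-cell-poor and 1 T-cell-rich line (9.88%), and 1684 were lower in all 4 (13.1%). The balance of these counts moved with the scaling, to 1806 higher and 1167 lower once structural RNA and unnamed identifiers were removed, and to 1760 and 1038 without the KO libraries of 6694c2 and 6419c5. Those RNAs held 13.8% of the TPM in the KO library of 6694c2 and 10.9% in that of 6419c5, against 1.19% to 1.76% in the other 6 libraries, so both deviating libraries belong to the T-cell-poor group. The libraries of the groups did not overlap at all for 276 genes with higher levels in the T-cell-poor lines (2.14%) and for 281 with lower levels (2.18%). A gap of at least 1 log2 unit between the lowest library of one group and the highest of the other was found for 20 genes higher (0.155%) and 7 lower (0.0543%). Of these 27 separated genes, 7 of the higher and 2 of the lower ones reached 1 TPM in libraries of 1 group only, so they passed the filter on low values only through the group in which they were high.

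**Figure D1:**
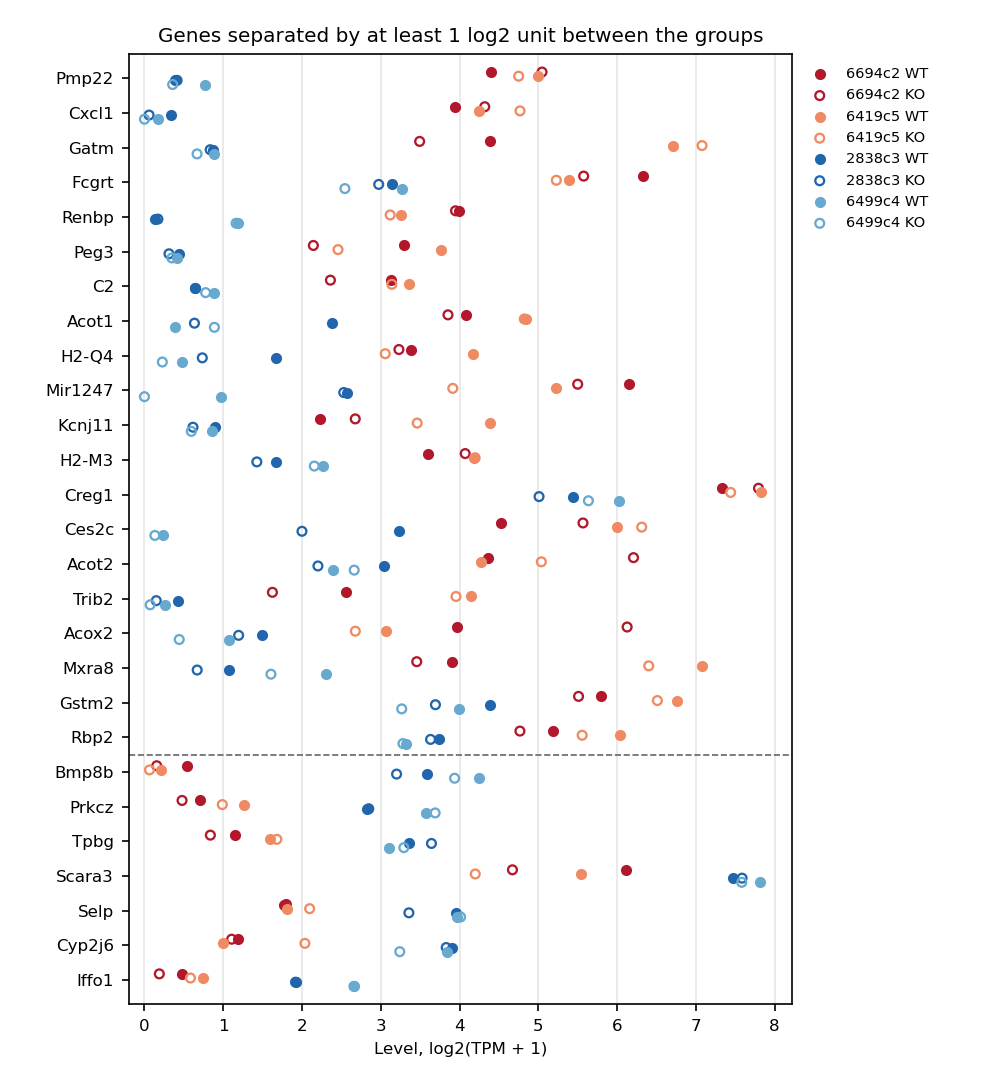
Level of the 27 separated genes as log2(TPM + 1), 1 point per library, with the 20 genes higher in the T-cell-poor lines above the dashed line and the 7 lower ones below it, each block ordered by the gap. Red and orange points are T-cell-poor lines, blue points T-cell-rich lines, filled points WT and open points KO. The widest gaps are those of Pmp22, Cxcl1 and Gatm, and in each row the 2 colour groups stand apart.

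Cxcl1, the neutrophil chemokine that signals through CXCR2 (ENSMUSG00000029380, chr5:91039094-91040974 on GRCm39), separated the groups almost completely. In the WT and KO libraries it stood at 14.4 and 19.0 TPM in 6694c2 and at 18.02 and 26.2 TPM in 6419c5. In 2838c3 it stood at 0.259 and 0.0418 TPM, and in 6499c4 at 0.127 TPM and listed at 0. Every T-cell-poor library lay above every T-cell-rich library, by 3.61 on the log2(TPM + 1) scale at the narrowest point. The log2 difference of the groups was 4.18 (SE 0.36, 95% interval 3.27 to 5.09), and it was 3.84 among the WT and 4.51 among the KO libraries. Its adjusted limma p on line means was 0.464. A limma fit of all 8 libraries with the line as a block gave an adjusted p of 0.0138. That fit counts the libraries of a line as partly separate evidence. Cxcl1 also passed the filter on low values only through the T-cell-poor libraries.

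The other CXCR2 ligands did not follow Cxcl1. Cxcl2 was highest in a T-cell-rich line, at 9.38 and 2.65 TPM in 2838c3, and lay between 0.215 and 1.75 TPM in the remaining 6 libraries. Cxcl3 also peaked in 2838c3, at 29.3 and 17.4 TPM, and was lowest in 6499c4, at 1.02 and 1.77 TPM, with the T-cell-poor libraries between at 1.80 to 9.28 TPM. Cxcl5, the CXCR2 ligand with the highest level, stood at 505 TPM in the WT and 96.4 TPM in the KO library of 2838c3, at 313 and 179 TPM in 6419c5, at 81.0 and 117 TPM in 6694c2 and at 62.7 and 52.3 TPM in 6499c4. For these 3 genes the 2 lines of a group lay on either side of lines of the other group. Cxcl15, below the filter, was listed at 29.2 and 9.93 TPM in 6419c5 and at no more than 0.856 TPM in any other line. Of the 7 genes on the CXCR2-ligand list, which also holds Ppbp and Pf4, 5 were tested. Of these, 1, Cxcl1, kept its order across the pairs, and 4 were mixed. Over all genes, 9.88% were higher and 13.1% lower in all pairs. The 3 promoters shown above thus carry the same NF-kB sequence in genes with different patterns, and the match says nothing of whether the factor was bound.

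**Figure D2:**
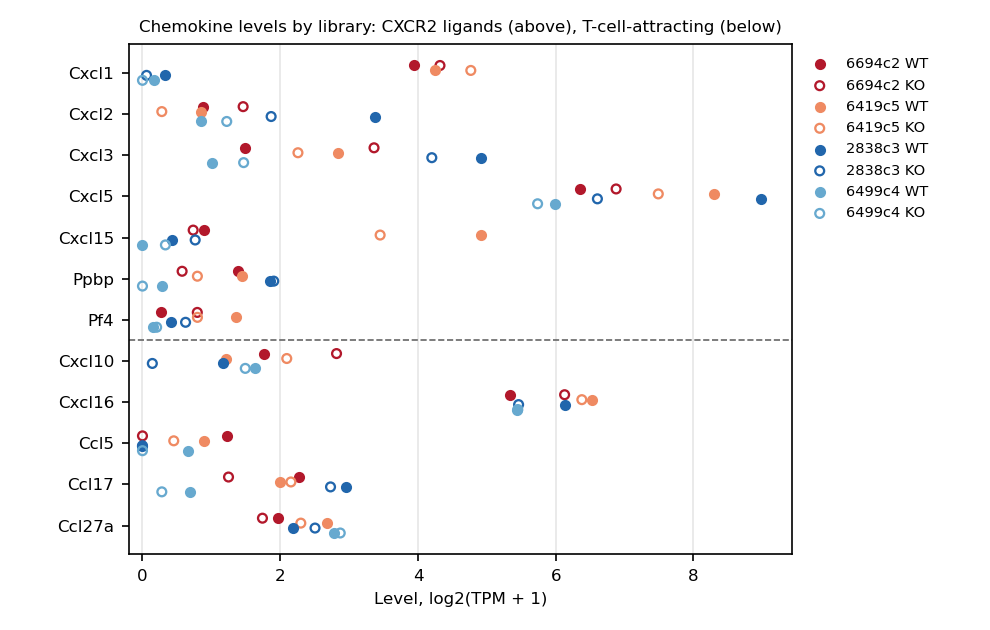
Level of chemokines that reached 1 TPM in at least 1 library, as log2(TPM + 1), 1 point per library. Genes on the CXCR2-ligand list stand above the dashed line and T-cell-attracting chemokines below it. Colours mark lines and filled or open points WT or KO as in the key. In the Cxcl1 row the 4 red and orange points (14.4 to 26.2 TPM) stand apart from the blue ones, and in the other rows the colours mix.

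No tested T-cell-attracting chemokine was lower in the T-cell-poor line in all 4 pairs. Cxcl9, which draws T cells through CXCR3, was at or below 0.824 TPM in every library and was not tested. Cxcl10, which uses the same receptor, stood at 2.39 and 6.05 TPM in 6694c2 and 1.33 and 3.27 TPM in 6419c5, against 1.26 and 0.104 TPM in 2838c3 and 2.1097 and 1.81 TPM in 6499c4. It was higher in the T-cell-poor line in all 4 pairs of lines, but its libraries overlapped, and its log2 difference of 0.86 (95% interval -0.36 to 2.09) lay at 0.09 among WT and 1.64 among KO libraries. Cxcl16, a membrane-bound ligand of CXCR6, ran from 39.4 to 91.6 TPM in the T-cell-poor and from 42.5 to 69.5 TPM in the T-cell-rich libraries, which overlap. Ccl5 was at or below 1.34 TPM everywhere. Of 14 listed genes 4 were tested, with 1 higher in all pairs and 0 lower, against 9.88% and 13.1% of all genes. Their median log2 difference was 0.36, against -0.03 over all genes.

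Other myeloid signals varied by line. Ccl2, which draws monocytes, stood at 34.6 and 18.6 TPM in 2838c3 and at 0.139 and 0.194 TPM in 6499c4, both T-cell-rich lines, with 1.09 to 8.19 TPM in the T-cell-poor libraries. The macrophage growth factor Csf1 stood at 42.7 and 39.1 TPM in 6419c5 but at 2.47 and 3.50 TPM in 6694c2, and at 34.2 and 7.27 TPM in 2838c3 and 5.17 and 7.11 TPM in 6499c4. Csf2 (GM-CSF) was lower in the T-cell-poor line in all 4 pairs, at 6.83 and 9.07 TPM in 6694c2 and 1.93 and 4.66 TPM in 6419c5 against 8.58 to 11.7 TPM in the T-cell-rich libraries. These ranges overlap, and the log2 difference was -0.89 (95% interval -2.15 to 0.36). Csf3 (G-CSF) was at or below 2.63 TPM and Il6 at or below 0.0326 TPM in every library, and neither was tested. Spp1 (osteopontin) and Mif, 2 secreted factors of very high level, were also lower in all 4 pairs, with log2 differences of -1.26 and -0.51, but among the WT libraries alone these were -0.28 and 0.16. Of 13 tested genes of the myeloid growth factor and cytokine list, 0 were higher and 3 lower in all pairs, where 9.88% and 13.1% of all genes were. Among 6 tested monocyte and other chemokines, Cxcl17, a mucosal chemokine, was the 1 gene without overlap, at 17.1 to 29.1 TPM against 2.03 to 16.1 TPM. Over all genes, 2.14% were higher and 2.18% lower without overlap.

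MHC class I presentation was the tested immune list with the most genes ordered by group. Of 24 listed genes 18 were tested, and 8 were higher in the T-cell-poor line in all 4 pairs (9.88% of all genes were) and 0 lower. Without overlap, 5 were higher (2.14% of all genes were), namely H2-Q4, H2-M3, Tap2, Tap1 and Tapbpl. Of these, Tap1 passed the filter on low values only through the T-cell-poor libraries. The median log2 difference of the list was 0.26, with 15 of 18 genes above 0, and it was 0.26 among the WT and 0.51 among the KO libraries. Leaving out the KO libraries of 6694c2 and 6419c5 gave 9 genes higher in all pairs (1760 of all 12900 genes were) and 6 without overlap. A TPM minimum of 5 gave 6 higher (913 of all 9920 genes were) and 3 without overlap among 16 genes. KO libraries only gave 9 higher and 2 lower, where 1795 and 2457 of all 12900 genes were. Without line 6419c5, which leaves fewer pairs, there were 9 higher and 4 lower, where 3143 and 5252 of all 12900 genes were.

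H2-M3, a nonclassical class I molecule known for presenting formylated bacterial peptides (ENSMUSG00000016206, chr17:37581106-37585384 on GRCm39), stood at 11.1 and 15.8 TPM in 6694c2 and 17.1 and 17.3 TPM in 6419c5. In 2838c3 it stood at 2.19 and 1.69 TPM and in 6499c4 at 3.80 and 3.46 TPM. All T-cell-poor libraries were higher, and the log2 difference was 2.13 (SE 0.40, 95% interval 1.09 to 3.17). H2-Q4, a Qa-region class I gene, stood at 9.44, 8.38, 17.1 and 7.32 TPM in the T-cell-poor and at 2.18, 0.664, 0.3965 and 0.170 TPM in the T-cell-rich libraries, each line given WT first. Its log2 difference of 2.68 (SE 0.44) is uncertain, because H2-Q genes are near-identical copies that can share reads.

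Both subunits of the peptide transporter were higher in the T-cell-poor lines. Tap2 ran from 4.39 to 17.1 TPM in the T-cell-poor and from 1.45 to 1.87 TPM in the T-cell-rich libraries, without overlap and with a log2 difference of 1.81 (SE 0.50). Tap1, its partner, was low throughout, at 1.07 to 4.21 TPM against 0.101 to 0.315 TPM, a log2 difference of 1.25 (SE 0.41). The highest values of both were in the WT library of 6419c5. Tapbpl, which edits peptides on class I, ran from 19.5 to 42.8 TPM against 15.1 to 17.3 TPM, a narrower gap. Tap1 and Tap2 lie 6302 bases apart on chromosome 17.

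The classical class I genes and their light chain were abundant and not ordered by group. H2-K1 ran from 351 to 513 TPM in the T-cell-poor and from 225 to 476 TPM in the T-cell-rich libraries, with a log2 difference of 0.24 (95% interval -0.65 to 1.13). H2-D1 ran from 395 to 513 TPM against 170 to 471 TPM, and its 2 lowest libraries were both of 2838c3. B2m stood at 255 and 226 TPM in 6694c2 and 294 and 267 TPM in 6499c4, but at 655 and 592 TPM in 6419c5 and 588 and 451 TPM in 2838c3, so that each group held 1 high and 1 low line. The immunoproteasome subunits Psmb8 and Psmb9 were below the filter, with up to 3.35 and 1.61 TPM in 6419c5 and at most 0.323 TPM in any library of the other lines. Of the MHC class II list 2 of 10 genes were tested, and neither kept its order, where 9.88% of all genes were higher and 13.1% lower in all pairs.

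**Figure D3:**
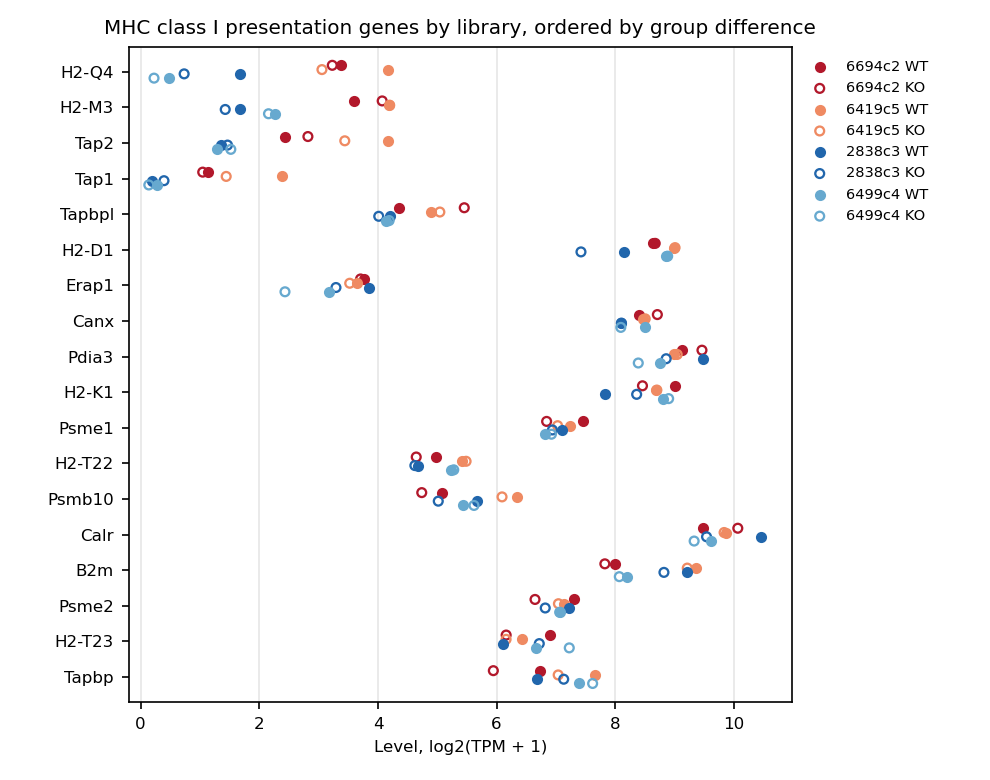
Level of the 18 tested MHC class I presentation genes as log2(TPM + 1), 1 point per library, ordered from the most positive to the most negative group difference. Red and orange points are T-cell-poor lines, blue points T-cell-rich lines, filled points WT and open points KO. The colours stand apart in the top 5 rows, H2-Q4 to Tapbpl, while H2-K1, H2-D1 and B2m mix.

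Interferon-stimulated genes are switched on together with class I presentation in an interferon response. Of 44 listed genes 23 were tested, and the share higher in all 4 pairs was near that of all genes (9.88%), while 2.14% of all genes were higher without overlap. Ifit3 and Ifi27 were the 2 that were higher in all 4 pairs and did not overlap, and 0 were lower. Ifit3, an antiviral effector, stood at 4.87 and 1.57 TPM in 6694c2 and 5.02 and 4.58 TPM in 6419c5 against 0.190 to 0.463 TPM in the T-cell-rich libraries. It passed the filter on low values only through the T-cell-poor libraries. Ifi27 ran from 107 to 231 TPM against 36.1 to 70.1 TPM, a log2 difference of 1.69 (SE 0.41), and Ifi27l2a lies on the opposite strand of it. The median of the list was 0.58, 0.80 among WT and 0.16 among KO libraries. Irf7, a transcription factor of the interferon response, did not keep its order, at 36.7 and 23.5 TPM in 6419c5 and 10.8 and 20.8 TPM in 6499c4 against 3.36 and 1.90 TPM in 6694c2 and 0.621 and 1.74 TPM in 2838c3. Of 14 tested interferon receptor and JAK-STAT genes, 0 kept their order in either direction.

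Ligands that T cells read directly were mixed. Cd274 (PD-L1) stood at 25.1 and 14.6 TPM in 6419c5 and at 0.775 and 0.977 TPM in 6694c2, both T-cell-poor lines, with 2.54 to 8.50 TPM in the T-cell-rich libraries. Its log2 difference was -0.06 with a 95% interval of -3.06 to 2.93. Cd276 (B7-H3) was lower in the T-cell-poor line in all 4 pairs, at 23.9 to 43.6 TPM against 41.5 to 57.3 TPM, and Nectin2, a ligand of TIGIT and CD226, likewise at 85.2 to 127 TPM against 114 to 133 TPM. Ceacam1, a ligand of TIM-3, was higher in all 4 pairs, with 24.7 and 37.4 TPM in 6419c5 and 2.51 and 4.45 TPM in 6694c2 against 0.223 to 3.87 TPM. All 3 overlapped between the groups. In the checkpoint list 14 of 26 genes were tested, with 1 higher and 2 lower in all pairs, near the 9.88% and 13.1% of all genes.

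Genes of prostaglandin synthesis, and Epha2, a receptor studied beside it in T-cell-poor pancreatic tumors, included 2 of 11 tested that were higher in all 4 pairs and 0 that were lower, against 9.88% and 13.1% of all genes. Epha2 ran from 233 to 347 TPM in the T-cell-poor and from 280 to 353 TPM in the T-cell-rich libraries, with a log2 difference of -0.04 (95% interval -0.77 to 0.69). Ptgs2 (COX-2) was higher in the KO than in the WT library of each line and ran from 20.2 to 72.7 TPM against 9.16 to 90.1 TPM. Ptgs1 (COX-1) was higher in the T-cell-poor line in all 4 pairs, at 33.9 to 61.9 TPM, but 2838c3 reached 50.5 TPM while 6499c4 stood at 1.47 and 0.967 TPM. Ptges, the prostaglandin E synthase, was also higher in all 4 pairs, with 2838c3 at 2.51 and 6.02 TPM and 6499c4 at 41.1 and 74.2 TPM against 48.4 to 94.7 TPM. In both genes 1 of the T-cell-rich lines was close to the T-cell-poor lines. Of 4 tested genes of tryptophan, arginine and adenosine metabolism, 0 kept their order.

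The remaining genes separated by at least 1 log2 unit and higher in the T-cell-poor lines span several functions. Pmp22, a tetraspan membrane protein of myelin and epithelia (ENSMUSG00000018217, chr11:63019718-63050600), stood at 20.1 and 32.1 TPM in 6694c2 and 31.0 and 25.9 TPM in 6419c5. It stood at 0.309 and 0.333 TPM in 2838c3 and 0.706 and 0.2815 TPM in 6499c4. The gap of 3.63 was the widest of all genes tested, and the log2 difference was 4.32 (SE 0.34, 95% interval 3.45 to 5.19). Its adjusted limma p on line means was 0.464. With the line as a block over all libraries the adjusted limma p was 0.0138, but that fit counts libraries of a line as partly separate evidence. Pmp22 also passed the filter on low values only through the T-cell-poor libraries. Gatm, the first enzyme of creatine synthesis, stood at 19.8 and 10.3 TPM in 6694c2 and 103 and 134 TPM in 6419c5 against 0.589 to 0.844 TPM, so its level in the T-cell-poor group depended on the line. Fcgrt, the heavy chain of the neonatal Fc receptor that recycles albumin and IgG, was expressed in all lines, at 36.5 to 79.4 TPM against 4.83 to 8.66 TPM, a log2 difference of 2.65 (SE 0.36). Its adjusted limma p was 0.0206 in the fit of 8 libraries that ignores the line and above the threshold in the other fits.

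Complement C2, a component of the classical pathway, ran from 4.14 to 9.23 TPM in the T-cell-poor and from 0.563 to 0.8385 TPM in the T-cell-rich libraries. Peg3, an imprinted zinc-finger gene expressed from the paternal allele, ran from 3.42 to 12.6 TPM against 0.241 to 0.352 TPM. In each T-cell-poor line the KO library held the lower Peg3 value. Renbp, the epimerase of N-acetylglucosamine on chromosome X, stood at 14.9 and 14.4 TPM in 6694c2 and 8.55 and 7.69 TPM in 6419c5 against 0.0972 to 1.27 TPM. Kcnj11, the pore of the ATP-sensitive potassium channel, ran from 3.69 to 19.8 TPM against 0.511 to 0.857 TPM.

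Fatty acyl-CoA enzymes were among the separated genes. The cytosolic thioesterase Acot1 ran from 13.5 to 27.8 TPM against 0.305 to 4.198 TPM, and its mitochondrial neighbour Acot2 on chromosome 12 from 18.3 to 72.9 TPM against 3.602 to 7.21 TPM. These genes are close copies, so reads can be shared between them. Acox2, the peroxisomal oxidase of branched chains, ran from 5.39 to 68.9 TPM against 0.358 to 1.81 TPM, with its highest value in the KO library of 6694c2. Creg1, a lysosomal glycoprotein, was the most abundant separated gene higher in the T-cell-poor lines, at 160 to 226 TPM against 31.2 to 63.9 TPM. Rbp2, a retinol carrier, ran from 26.2 to 64.8 TPM against 8.72 to 12.3 TPM, Mxra8, an adhesion protein and alphavirus receptor, from 9.98 to 134 TPM against 0.590 to 3.93 TPM, and the pseudokinase Trib2 from 2.08 to 16.6 TPM against 0.0515 to 0.339 TPM. Ces2c, a carboxylesterase, and Gstm2, a glutathione transferase, belong to families of similar copies and are uncertain, at 22.1 to 78.5 TPM against 0.0961 to 8.40 TPM and 44.6 to 107 TPM against 8.62 to 19.8 TPM. Mir1247 ran from 14.1 to 70.3 TPM against 0 to 4.93 TPM, but it is a short hairpin gene inside the longer Dio3os transcript, and the mature miRNA was not measured in these poly(A) libraries. Of named protein-coding genes, just outside the threshold were Cobl (gap 0.92) and Tap2 (gap 0.91), and just inside it Rbp2 (gap 1.03).

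The genes separated and lower in the T-cell-poor lines were fewer. Bmp8b, a bone morphogenetic protein ligand (ENSMUSG00000002384, chr4:122998923-123025892), stood at 0.450 and 0.114 TPM in 6694c2 and 0.159 and 0.0458 TPM in 6419c5. It stood at 10.995 and 8.19 TPM in 2838c3 and 18.1 and 14.3 TPM in 6499c4. The log2 difference was -3.50 (SE 0.40, 95% interval -4.54 to -2.47), and its adjusted limma p on line means was above the threshold. With the line as a block over 8 libraries the adjusted limma p was 0.0191, but that fit counts libraries of a line as partly separate evidence. Bmp8b also passed the filter on low values only through the T-cell-rich libraries. Prkcz, an atypical protein kinase C of cell polarity, ran from 0.392 to 1.40 TPM against 6.11 to 11.9 TPM. Tpbg, the surface antigen 5T4, ran from 0.786 to 2.20 TPM against 7.59 to 11.5 TPM. Both were higher in every T-cell-rich library.

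Selp (P-selectin), a receptor through which leukocytes roll, ran from 2.41 to 3.28 TPM in the T-cell-poor and from 9.24 to 15.1 TPM in the T-cell-rich libraries. Cyp2j6, a cytochrome P450, ran from 1.00 to 3.10 TPM against 8.45 to 14.0 TPM, and Iffo1, of the intermediate filament family, from 0.1399 to 0.670 TPM against 2.78 to 5.32 TPM. Scara3, of the scavenger receptor family, was the most abundant gene of this set. It stood at 68.0 and 24.5 TPM in 6694c2 and 45.4 and 17.4 TPM in 6419c5 against 177 to 225 TPM, with a log2 difference of -1.82 among the WT and -3.15 among the KO libraries. Scara3 overlaps the very abundant gene Clu on the opposite strand, whose log2 difference was -1.55. The series calls the libraries stranded, but the sources used here do not say whether strand was used in counting, so reads of Scara3 and Clu may not be told apart. Of named protein-coding genes, just outside the threshold were the filament crosslinker Flnc (gap 0.82) and the cadherin Cdh24 (gap 0.80), and just inside it Iffo1 (gap 1.18).

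**Figure D4:**
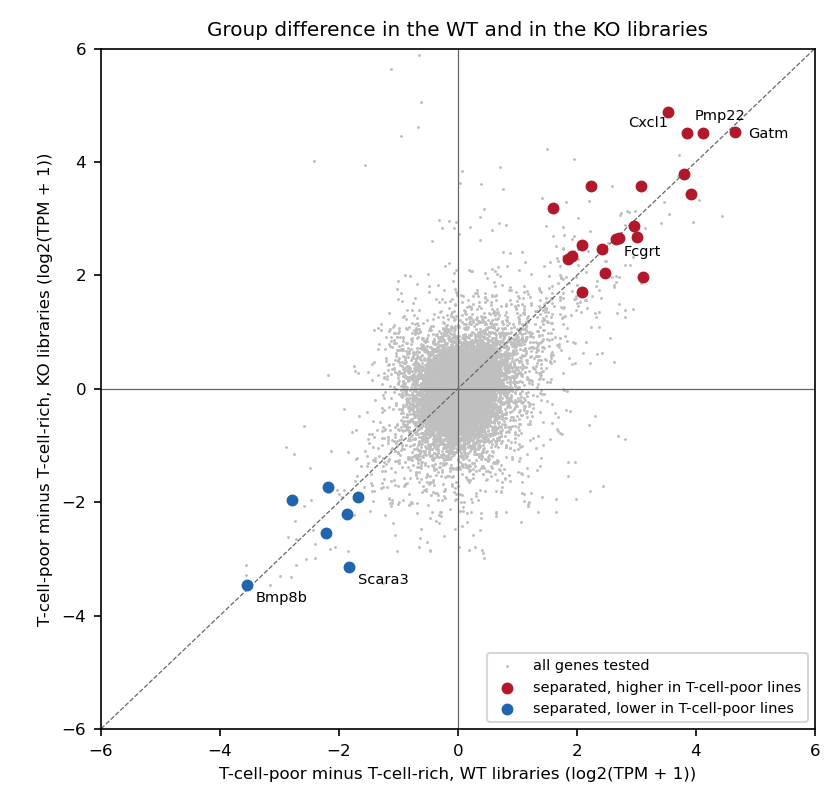
Difference between the T-cell-poor and T-cell-rich lines on log2(TPM + 1), among WT libraries on the x axis and among KO libraries on the y axis, 1 point per gene of the 12900 tested. Red points are the 20 separated genes higher and blue points the 7 lower in the T-cell-poor lines, and the dashed line marks equal differences. Each coloured point has the same sign on both axes, while grey points far above the dashed line, such as Rmrp (-0.62 among WT and 5.05 among KO libraries), are genes with a more positive difference among the KO libraries.

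The limma test of KO minus WT between the groups called 1 gene at an adjusted p under 0.05 (0.00775% of genes), and 1505 at an unadjusted p under 0.05 (11.7%). The called identifier, ENSMUSG00000094377, has no name in the annotation. It stood at 133 and 83.7 TPM in the KO libraries of 6694c2 and 6419c5 and at or below 2.29 TPM in the other 6 libraries. Rmrp, the RNA of RNase MRP, followed the same pattern, at 238 and 365 TPM against 1.90 to 8.09 TPM, with an adjusted limma p of 0.0934. Of 23 tested stress genes driven by ATF4, 7 were higher and 1 lower in the T-cell-poor line in all pairs, against 9.88% and 13.1% of all genes, with a median log2 difference of -0.22 among the WT and 1.25 among the KO libraries. The transcription factor Atf3 was at 15.2 and 26.4 TPM in the WT but 55.6 and 232 TPM in the KO libraries of 6694c2 and 6419c5, against 10.8 to 19.9 TPM in the T-cell-rich lines. Hypoxia and glycolysis genes had a median of 0.73 among WT and -1.12 among KO libraries, and G2/M genes -0.9995 and 0.92. For both of these lists a T-cell-rich line moved most: in 2838c3 the summed G2/M level was 3071 TPM in the WT and 371.5 TPM in the KO library, and the summed hypoxia level 11676 and 29320 TPM. The ATF4 list instead had its 2 highest ratios of KO to WT in 6694c2 and 6419c5, from 3784 to 8251 TPM and from 2061 to 4507 TPM, whose KO libraries also held the most structural RNA. The part of structural RNA in this was not tested.

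Driver genes and subtype programs of pancreatic cancer gave small counts. Of 17 tested driver genes, among them Trp53 and Myc, 0 kept their order in all 4 pairs. Cdkn2a stood at 5.76 and 5.21 TPM in 6694c2 and at 520 to 1507 TPM in the other 6 libraries. Of 23 tested classical subtype genes 1 was higher and 2 lower in all pairs, and of 10 basal-like genes 3 were higher and 0 lower, against 9.88% higher and 13.1% lower of all genes. Klf5, a transcription factor of epithelial PDAC cells, ran from 87.6 to 187 TPM against 79.1 to 290 TPM, and Usp22 and Kdm3a, 2 chromatin regulators that were studied in these lines, had log2 differences of -0.05 (95% interval -0.76 to 0.66) and -0.27 (-1.03 to 0.49). Of 23 chromatin regulators 0 were higher and 3 lower in all pairs, the latter close to the 13.1% of all genes.

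Matrix genes held some of the wider differences without clean separation. Sparc, a matricellular glycoprotein, stood at 315 and 218 TPM in 6694c2 and 272 and 327 TPM in 6419c5 against 130 and 70.9 TPM in 2838c3 and 7.46 and 18.4 TPM in 6499c4, a log2 difference of 2.99 (SE 0.95). Timp3, an inhibitor of metalloproteinases, ran from 10.3 to 99.0 TPM against 0.732 to 10.2 TPM, a gap of 0.02. Fn1 (fibronectin) was lower in the T-cell-poor line in all 4 pairs, yet its log2 difference was 0.44 among WT and -2.99 among KO libraries. Of 15 tested mesenchymal genes 3 were higher and 2 lower in all pairs, and of 16 collagens and matrix glycoproteins 0 and 2, against 9.88% and 13.1% of all genes.

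Genes of surface glycosylation and growth signalling gave smaller sets. Muc1, a large transmembrane mucin, was lower in the T-cell-poor line in all 4 pairs, with 145 and 96.1 TPM in 6694c2 and 673 and 324 TPM in 6419c5 against 563 to 791 TPM. Galnt12, which starts O-glycans, did not overlap, at 2.37 to 14.0 TPM against 16.7 to 19.8 TPM. Of 17 tested mucin and O-glycan genes 3 were higher and 4 lower in all pairs, against 9.88% and 13.1% of all genes. C1galt1c1 itself was lower in the KO library of every line, at 10.9 to 19.0 TPM against 37.0 to 54.2 TPM in the WT libraries, with a group difference of -0.33 (95% interval -1.14 to 0.48). Rnf43, which removes Wnt receptors, ran from 1.02 to 2.78 TPM against 2.90 to 7.39 TPM, and Nrg2, an EGF-family ligand, from 0.833 to 1.65 TPM against 2.88 to 8.79 TPM. Egfr was higher in all 4 pairs, at 2.48 to 8.76 TPM against 1.93 to 3.13 TPM, and the libraries overlapped.

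Of 23 tested genes of cell death and killing resistance, 6 were higher and 1, Bcl2l11, lower in all pairs, against 9.88% and 13.1% of all genes, and the median log2 difference was -0.01. Serpinb9b, related to the granzyme B inhibitor, ran from 10.3 to 51.0 TPM against 1.46 to 11.003 TPM, with an overlap set by the WT library of 2838c3. Fas, a death receptor, ran from 0.786 to 3.20 TPM against 0.0870 to 2.20 TPM. Other higher genes included Tnfrsf1a, Bid and Bax. The set holds genes that promote death (Fas, Bid, Bax) as well as a serpin that resists it, so its name does not describe the genes that differed.

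The cultures held keratins of duct cells and low levels of most markers of other cell types. Krt8, Krt18 and Krt19, keratins of duct cells, lay between 2528 and 8257 TPM in every library. Epcam and Sox9 were lower, at 1.21 to 44.9 and 3.79 to 22.02 TPM. Of 15 immune markers 2 were tested, Cd14 and Cd68, and both were lower in the T-cell-poor line in all pairs (13.1% of all genes were). Cd14 stood at 238 to 289 TPM against 322 to 418 TPM. The summed level of the list was 264 to 302 TPM in the T-cell-poor and 341 to 448 TPM in the T-cell-rich libraries, nearly all of it Cd14. Ptprc, Cd3e, Cd4, Cd8a and Itgam were at or below 0.151 TPM, and Cd3d was listed at 0 in all libraries. The fibroblast markers summed to 6.23 to 11.9 TPM and the endothelial markers to 5.55 to 19.1 TPM. The part of Cd14-bearing or other cells in the group differences was not tested. In RNA of whole cultures, fewer cells of a type and less RNA per cell cannot be told apart.

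The position of genes in the genome went with their direction, a pattern noticed after the values were seen. On chromosome 17, 201 of 636 tested genes were lower in the T-cell-poor line in all 4 pairs (31.6%) and 32 higher, and the median log2 difference was -0.24 against -0.03 over all genes. Chromosome X showed 107 lower and 19 higher of 391. The opposite held on chromosome 7, with 211 of 969 higher (21.8%) and 43 lower, and on chromosome 16 the median was 0.24. Both chromosomes were highest in line 6419c5, whose median relative to the mean of the 4 lines was 0.21 on chromosome 7 and 0.39 on chromosome 16, against -0.05 and -0.18 in 6694c2. Without 6419c5 the chromosome 7 median was 0.01, with 318 of 969 genes higher and 279 lower in all remaining pairs. Over all 12900 genes that setting gave a median of -0.095, with 3143 higher and 5252 lower. Chromosome 7 thus still lay above all genes without that line. The chromosome 17 median stayed below 0 under every setting computed, from -0.08 to -0.39, nearest to 0 with no filter on low values and at -0.09 without line 6694c2, -0.13 without 6499c4 and -0.39 without 6419c5. Relative to the mean of the 4 lines, genes of chromosome 17 had a median of -0.27 in 6694c2, 0.04 in 6419c5, 0.02 in 2838c3 and 0.21 in 6499c4, so the difference lay mainly between 6694c2 and 6499c4. On chromosome X the same medians were -0.153 in 6694c2, -0.048 in 6419c5, -0.005 in 2838c3 and 0.213 in 6499c4. For 6694c2 the WT library had 0.076 and the KO library, rich in structural RNA, -0.403. The group median of chromosome X was -0.13 among WT and -0.28 among KO libraries. The sex-linked genes listed summed to 0.362 and 0.283 TPM in 6499c4, against 4.27 to 32.3 TPM in the other lines. Their part in the chromosome X pattern was not tested. DNA copy number was not measured here.

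**Figure D5:**
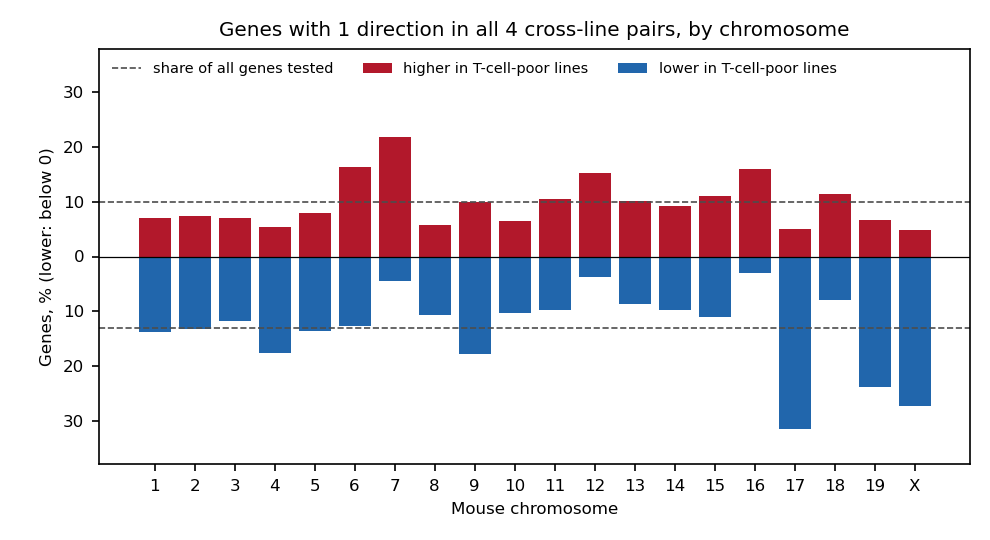
Share of the tested genes of each mouse chromosome, in percent, that were higher (red, above 0) or lower (blue, below 0) in the T-cell-poor line in all 4 pairs of lines. The dashed lines mark the shares over all genes, 9.88% higher and 13.1% lower. The longest blue bar is chromosome 17 at 31.6% and the longest red bar chromosome 7 at 21.8%.

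The H2 region, where most MHC genes lie, sits on that chromosome (chr17:34134873-37585384). Of 100 tested genes there, the 9 on the class I list had 4 without overlap and higher in the T-cell-poor lines and 0 lower. The other 91 genes of the region had 2 higher, C2 among them, and 8 lower without overlap. On the rest of chromosome 17 these counts were 3 and 38 of 536 genes, and over all genes 2.14% and 2.18%. H2-M3, H2-Q4, Tap1 and Tap2 thus ran against the direction of the genes around them, whose median log2 difference was -0.22. Tap1 and C2 passed the filter on low values only through the T-cell-poor libraries.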

How the data were processed

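Poly(A) RNA of 8 cultures was sequenced once each. The authors deposited TPM, length-scaled shares with the same sum in every library, so depth is unknown and no counting interval can be given. The submitters' processing notes list STAR 2.7.11b, cutadapt 5.1, DESeq2 2.11.40.8, featureCounts 2.1.1 and the build mm39, and the way TPM was made is not stated there. Names and positions came from GENCODE vM39 on GRCm39 (45505 of 49315 identifiers matched).

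From these values log2(TPM + 1) was averaged over the WT and KO library of each line, and limma 3.58.1 (R 4.3.3, variance trend) compared 2 lines with 2 over 12900 genes with TPM of at least 1 in 4 libraries, with Benjamini-Hochberg adjustment at 0.05. The estimate equals that of a fit of 8 libraries with genotype as a covariate. The fit was also run on simulated line means with known changes, whose levels and spreads came from these data. The outcome of that run is not given here. The labels name no separate cultures within a line and genotype, so p-values measure only the spread between lines, with 1 library per line and genotype.

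Genes named are the 12 per direction with the widest gap, up to 5 members of each list without overlap, and 30 set genes. Separated genes beyond these and other list members were named after their values were seen. The comparison, lists and genes were chosen with earlier results of these data known. Alternatives were other pseudocounts, filters, scalings, genotypes, variance models, fits of 8 libraries and each line left out; the removal of 2 KO libraries was chosen after seeing the data. Python 3.11.15 with pandas 2.3.3 and numpy 2.4.6 made the tables. Some results are not reported here.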

Additional observations from a re-analysis of the deposited data

Results flagged for a closer look

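Within a group of 4 libraries, 1 library stood far from the others for 8 of 136 groups looked at (68 named genes in each of the 2 groups). For 4 independent samples chance flags about 1 in 20. The libraries of a line are not independent, so that rate need not hold here. Among the T-cell-rich libraries, the KO library of 2838c3 was low for Selp at 9.245 TPM, and the KO library of 6499c4 was low for Cyp2j6 at 8.455 TPM. The WT library of 2838c3 was high for Cxcl16 at 69.51 TPM and for Csf1 at 34.18 TPM, and the WT library of 6499c4 for Ccl5 at 0.5774 TPM, a level at which the other 3 libraries were listed at 0. Among the T-cell-poor libraries, the WT library of 6694c2 was low for Tubb3 at 5.564 TPM and its KO library for Ifit3 at 1.572 TPM, and the KO library of 6419c5 was low for Klf5 at 87.59 TPM. In Selp, Cyp2j6 and Ifit3 the groups stayed without overlap despite that library. The groups did not overlap in Tubb3 either, where the flagged library lay on the side away from the other group.

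The unnamed identifier ENSMUSG00000094377 had a group difference that was 6.546 log2 units higher among the KO than among the WT libraries. Its adjusted p in the limma fit across all genes was 0.0254. Both KO libraries in which it was high also held the most structural RNA.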

How the results depend on the processing

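With 2 lines against 2, the 0 genes called higher and 0 called lower by limma on line means stayed at 0 under other pseudocounts, filters, scalings, variance models, single genotypes and with any line left out. Fits of 8 libraries called 3 genes higher and 1 lower with no line block, and 2 higher and 1 lower with the line as a replicate block. The fit with no line block counts libraries of a line as fully separate evidence. The fit with the line as a block counts them as partly separate. The 20 separated genes higher became 32 with a pseudocount of 0.1, 67 in WT libraries only, 99 in KO libraries only, 34 without the KO libraries of 6694c2 and 6419c5, and 83 to 173 with 1 line left out. They were 276 at a gap of 0 and 3 at a gap of 2. The 7 separated genes lower became 12 with a pseudocount of 0.1, 23 in WT only, 135 in KO only and 38 to 89 with 1 line left out, 281 at a gap of 0 and 1 at a gap of 2. Settings with fewer libraries to separate raise these counts by construction. All 27 genes stayed separated in every setting in which they were tested, of which a TPM minimum of 5 tested 22 and the removal of structural RNA 26. In most settings this was fixed in advance. Fewer libraries, another filter or another variance model cannot close a gap, and a smaller pseudocount widens it. Only the other scalings and the removal of structural RNA could have closed a gap or turned the sign of a separated gene. The 1 gene whose group difference depended on genotype, ENSMUSG00000094377, was not in 2 of the fits. The removal of structural RNA also removes unnamed identifiers, and it was high in too few libraries for a TPM minimum of 5. Both of those fits called 0 genes. It was tested with a pseudocount of 0.1 and with no filter, and these fits called 0 as well. Quantile normalization called 8. The cause of these last changes was not tested. Of 816 log2 differences of named genes recomputed, 752 moved by less than the spread between lines, 64 by more. The sign was opposite in 52 of the 816, over 19 of 64 genes and none of the 19 separated ones among them; Cdkn2a went from -3.30 to 0.43 without line 6694c2, and Kdm3a from -0.27 to 0.37 in WT only. TPM keep no depth, so how far low values such as those of Bmp8b or Cxcl1 are limited by counting is not known.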

Other observations

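Further genes whose libraries did not overlap between the groups lay next to each other in the genome. Psca and Lynx1, which encode proteins of the same surface-anchored family, were both higher in the T-cell-poor lines, with gaps of 0.45 and 0.14 and 30769 bases between them on chromosome 15. Ifi27 and Ifi27l2b, 9358 bases apart on chromosome 12, were both higher too, with gaps of 0.60 and 0.17. Cebpb, a transcription factor of inflammation and stress, did not overlap either, at 70.1 to 117 TPM against 41.3 to 65.9 TPM. Bcl3, an NF-kB cofactor, and Axin1, a scaffold of Wnt signalling, were lower without overlap, at 40.1 to 45.7 TPM against 48.1 to 61.3 TPM and at 45.6 to 54.9 TPM against 57.2 to 71.1 TPM, both with differences smaller than 0.5 on the log2 scale. Ambp, the precursor of alpha-1-microglobulin, was higher in all 4 pairs of lines, at 17.3 to 115 TPM against 2.82 to 21.7 TPM, and the KO library held the lower value in each line.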
